A study of Cercocebus atys with 16 samples.

Results

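The genes described here are 10 cytokine receptor chains, IL7R, IL4R, IL21R, IL6R, IL6ST, IL12RB2, IL18R1, IL18RAP, IL1R1 and IL10RA. They were taken by name: every probe whose gene name in the array files, in either edition of the array's annotation, is one of these symbols. They are 10 of the 11969 genes named in the files, and 22 of the 43603 distinct probes on the array. IL6ST had 7 of them, IL4R and IL21R had 3 each, IL12RB2 and IL1R1 had 2 each, and the other 5 genes had 1 each. IL4R is named only in the older edition.

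RNA came from double-negative T cells, which carry CD3 but neither CD4 nor CD8, purified from the blood of 4 sooty mangabeys (Cercocebus atys). All 4 animals were infected with SIV, so no uninfected animal enters any comparison. FBR and FTV are labelled as having low CD4 status, and FNV and FKN as having normal CD4 status. The labels give neither the age nor the sex of the animals. Stimulated cells received antibodies to CD3 and CD28 for 4 hours, at 3 and 1 mg/ml as the labels write the doses, and unstimulated cells from the same animal were the reference. Each animal had 4 arrays with 2 colours: stimulated against unstimulated RNA in both dye orientations, and each RNA against itself. The array was designed on the rhesus macaque genome (build rheMac2), so a probe may bind mangabey RNA less well where the species differ.

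Cytokine receptors of T cells are assembled from a chain that recognises the cytokine and a chain that it shares with other receptors, and most signal through JAK kinases and STAT transcription factors. IL7R, IL4R and IL21R pair with the common gamma chain IL2RG, while IL6R works with the gp130 signalling chain IL6ST, which IL12RB2 resembles. IL18R1, IL18RAP and IL1R1 are Toll/IL-1 receptor family chains that signal through MYD88, and IL10RA binds IL-10 together with IL10RB. In T cells of humans and mice, IL-7 signalling through IL7R sustains resting cells, and IL-12 together with IL-18 drives interferon-gamma production.

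The probes that carry the results follow 5′ to 3′, as the array files list them. IL18RAP and IL7R had the largest rise and the largest fall. The pairs of IL21R and of IL6ST probes show how far probes of 1 gene share sequence, and capitals mark the longest run of at least 15 bases that a probe has in common with another probe of its gene. In rheMac2 the IL18RAP probe lies at chr13:102369205-102369264 and the IL7R probe at chr6:35627399-35627458. The IL21R probes lie at chr20:25900958-25901016 and chr20:25900965-25901024, which overlap. The IL6ST probes, in the order printed, lie at chr6:53593629-53593688, chr6:53619007-53619066, chr6:53609839-53610946 and chr6:53610897-53624418, and the files list the IL6ST coordinates in descending order. The last 2 IL6ST probes cover more genome than their 60 bases.
IL18RAP A_01_P006028: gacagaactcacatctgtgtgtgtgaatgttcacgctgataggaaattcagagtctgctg
IL7R A_01_P1686946: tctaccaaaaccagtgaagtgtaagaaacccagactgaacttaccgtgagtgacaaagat
IL21R A_01_P011330: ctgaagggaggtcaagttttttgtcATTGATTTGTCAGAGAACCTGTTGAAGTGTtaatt
IL21R A_01_P1698076: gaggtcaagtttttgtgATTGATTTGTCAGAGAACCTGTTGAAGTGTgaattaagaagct
IL6ST A_01_P1687046: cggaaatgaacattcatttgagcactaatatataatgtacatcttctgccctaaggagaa
IL6ST A_01_P1751946: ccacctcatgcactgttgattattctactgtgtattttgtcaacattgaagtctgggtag
IL6ST A_01_P1695151: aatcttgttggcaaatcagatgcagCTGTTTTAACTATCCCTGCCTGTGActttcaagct
IL6ST A_01_P1751941: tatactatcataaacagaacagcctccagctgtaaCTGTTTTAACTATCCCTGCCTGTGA
The overlapping IL21R probes share 30 bases, so their values are not independent readings of the gene. The IL6ST probes A_01_P1695151 and A_01_P1751941 share 25 bases and differ in the remainder.

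The series as a whole gave readable arrays with 1 animal apart. On the 12 arrays of FBR, FTV and FKN, between 57.0% and 65.0% of spots in a channel were well above background, against 33.3% to 64.8% on the 4 arrays of FNV. The FNV arrays were read at a different pixel size (5 µm, against 3 µm), and are called the earlier scan batch here. On 1 ratio array of FNV the title and a characteristic name different RNA in channel 2; in the direction of its title it correlated at 0.66 to 0.72 with the arrays of the other 3 animals in that orientation. Markers of other blood cells were present and moved with stimulation. Of 8 monocyte markers tested, 4 fell and none rose, among them CD14 at -0.87 ± 0.48 (SD, n = 4 animals) on the log2 scale, while LYZ (-0.63, adjusted p = 0.194 in limma) did not pass. Of 4 B cell markers 2 fell and 1 rose; CD79B fell by 2.60 (adjusted p = 6.64e-04 in limma) and MS4A1 by 1.15. Mean log2 levels over the monocyte list were 8.85 to 10.48 in stimulated samples and 9.26 to 11.80 in unstimulated samples, and over the B cell list 7.41 to 8.96 in stimulated samples and 8.18 to 10 in unstimulated samples. Each of these monocyte and B cell markers was well above background in at least 14 of 16 channels of either condition. Of 4 NK cell markers tested none passed, with a median of 0.11; NKG7 (12.52 in stimulated and 12.38 in unstimulated samples) and KLRD1 (8.85 ± 2.77 in stimulated and 8.40 ± 2.46 in unstimulated samples; SD, n = 4) were well above background in all channels. NCAM1 was so in 10 of 16 stimulated and 15 of 16 unstimulated channels, and NCR1 in 1 of 16 stimulated and 2 of 16 unstimulated channels. Of 7 T cell markers 3 rose and 3 fell, with a median of -0.20, the extremes being CD3D (0.89) and CD5 (-1.0), and CD3E (-0.20) did not pass. For comparison with these marker counts, 20.0% of all probes tested rose and 20.5% fell. The CD4 probe, in cells purified as CD4-negative, was above background in all 32 channels at a response of 0.05, and CD8A and CD8B were not analysed here. Several of the receptors described below are also made by monocytes or B cells. The part of those cells, or of NK cells, in the receptor values was not tested. In bulk RNA, fewer cells of a type and less RNA per cell cannot be told apart.

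The first comparison asks which receptor transcripts changed within 4 hours of CD3 and CD28 stimulation. The response of an animal is the mean, over its dye-exchanged arrays, of the log2 ratio of stimulated over unstimulated signal, and limma tested the 4 responses against 0 over 27384 probes that were well above background in at least 2 animals. Of the 22 receptor probes 21 passed that filter. At an adjusted p under 0.05, 13 of the 21 rose, against 20.0% of all probes tested, and 1 fell, against 20.5%. The median response was 0.50 over the 21 receptor probes and -0.01 over all probes tested. The rises came from 7 genes (IL18RAP, IL18R1, IL1R1, IL21R, IL4R, IL12RB2 and IL6ST) and the fall from IL7R, while IL6R and IL10RA did not pass. Changes were moderate: IL18RAP alone among the probes that passed reached a 2-fold change. The number of rises depended on the animals included. Leaving out FKN or FBR left 4 receptor rises, and leaving out FTV left 5. Leaving out FNV, which leaves the later scan batch alone, gave 15, and the IL7R fall passed each time. Over all 27384 probes, rises went from 5466 to 2941 without FKN, 3174 without FBR, 3537 without FTV and 7112 without FNV. With median centring in place of loess, 4 receptor probes rose and none fell, while over all probes 1961 rose and 2909 fell.

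**Figure D1:**
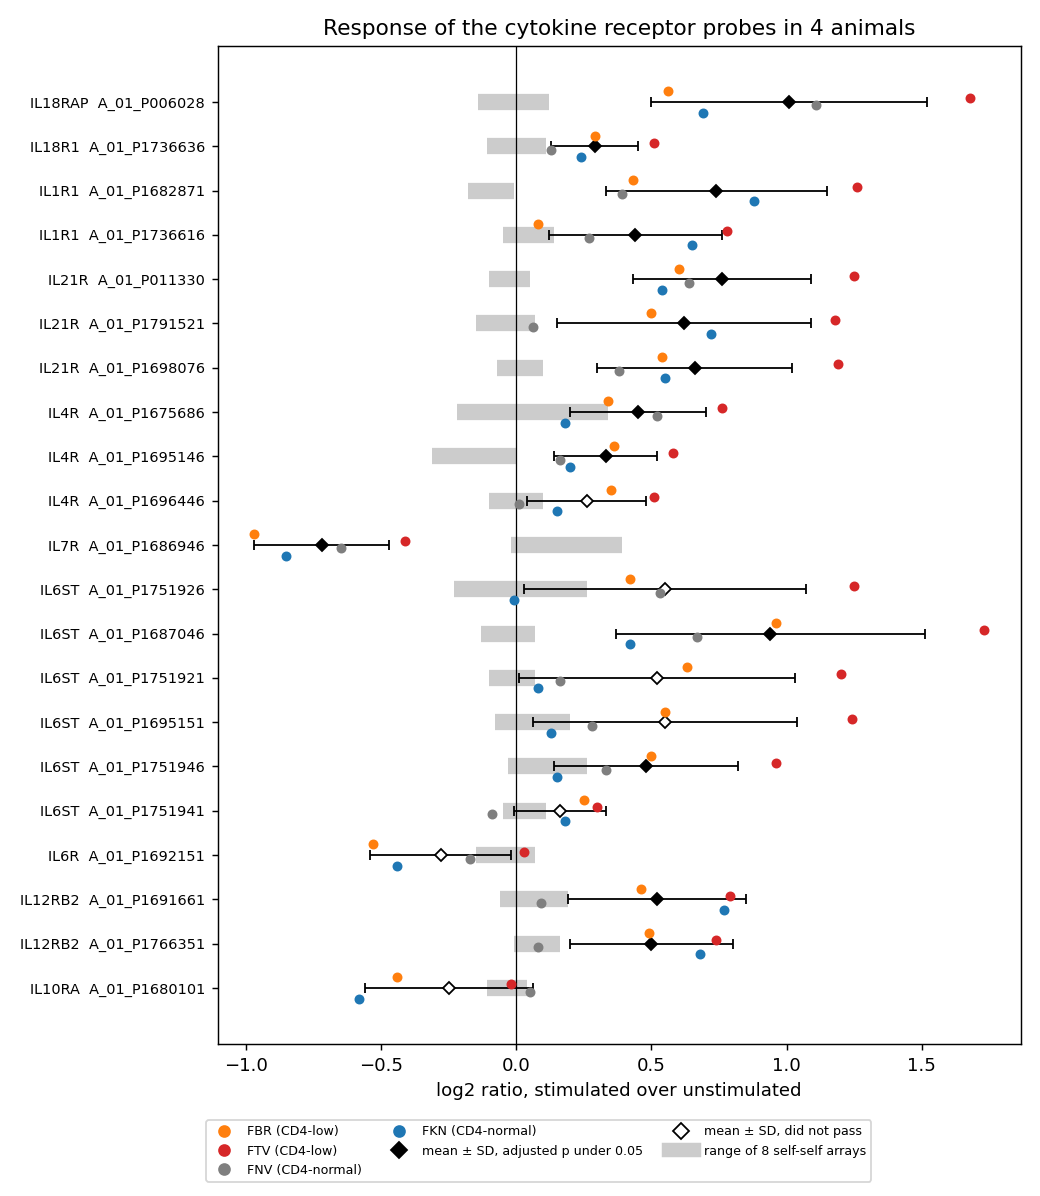
Log2 ratio of stimulated over unstimulated signal for each tested receptor probe, with 1 coloured point per animal, the mean ± SD as a diamond and the range of the 8 self-self arrays as a grey bar. The IL7R points all lie left of 0, and FTV is the rightmost point in 20 of the 21 probes.

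Among the chains of the IL-1 receptor family, IL18RAP, the signalling chain of the IL-18 receptor, rose most. Its response was 0.56 in FBR and 1.68 in FTV (low CD4 status), and 1.11 in FNV and 0.69 in FKN (normal CD4 status). All 4 animals lay beyond the probe's self-self arrays, which stayed between -0.14 and 0.12. The mean rise was 1.01 ± 0.51 (SD, n = 4 animals), a 2.01-fold change with an adjusted p of 0.0130 in limma, and it passed in all 4 fits that left out 1 animal. With median centring the rise was 1.05 with an adjusted p of 0.0517 in limma. In normalised log2 intensity, stimulated cells stood at 10.78 in FBR, 12.60 in FTV, 10.20 in FNV and 9.98 in FKN, against 10.21, 10.81, 9.22 and 9.26 in unstimulated cells of the same animals. Every animal was higher when stimulated, but the groups overlapped, because unstimulated FTV was above stimulated FNV, FKN and FBR.

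IL18R1, the chain that binds IL-18, rose less. Its responses were 0.29 in FBR, 0.51 in FTV, 0.13 in FNV and 0.24 in FKN, with a mean of 0.29 ± 0.16 (adjusted p = 0.0347 in limma). It was a dim probe, well above background in 14 of 16 channels in each condition, and with 1 animal left out the adjusted p ran from 0.0194 (without FNV) to 0.119 (without FBR). In each of the 4 animals the IL18RAP response exceeded that of IL18R1, by 0.72 ± 0.42 on average. The gap depended on how the dim IL18R1 probe was treated: with the scanner's own log ratios it was 0.40 ± 0.28, with 0.11 in FBR, and in the authors' deposited table FBR had 0.55 for IL18RAP and 0.53 for IL18R1. Over 4 animals an exact two-sided sign-flip test cannot give a p below 0.125, which is the value here, and 0.188 after adjustment over the 9 pairs of chains compared. Among those pairs the direction differed between animals for IL10RA against IL10RB, IL1R1 against IL1R2 and IL4R against IL2RG. It was the same in all 4 animals for the others. With the scanner's own log ratios or median centring, however, IL1R1 exceeded IL1RAP in 3 animals, with differences of 0 and -0.05 in FNV. IL18, the ligand, rose as well (1.25, adjusted p = 0.0428 in limma), and so did its soluble antagonist IL18BP (0.89, adjusted p = 0.0332 in limma).

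IL1R1, the signalling receptor of interleukin-1, rose on both probes. On the brighter probe, A_01_P1682871, the response was 0.43 in FBR, 1.26 in FTV, 0.39 in FNV and 0.88 in FKN, a mean of 0.74 ± 0.41 (1.67-fold, adjusted p = 0.0187 in limma, and 0.0131 to 0.0828 with 1 animal left out). The other probe averaged 0.44 ± 0.32 (adjusted p = 0.0457 in limma, and 0.0450 to 0.166 with 1 animal left out). Levels varied more between animals than with stimulation. The brighter probe stood at 10.34 in FBR, 9.30 in FTV, 8.43 in FNV and 9.67 in FKN when stimulated, against 9.95, 8.20, 7.94 and 8.97 when unstimulated. Its partner chain IL1RAP (0.24, adjusted p = 0.0567 in limma) and the decoy receptor IL1R2 (0.48, adjusted p = 0.0704 in limma) did not pass. Both ligands rose, IL1A by 1.25 and IL1B by 1.10.

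Among the chains that pair with the common gamma chain, IL21R, the receptor of interleukin-21, rose on all 3 probes. On the brightest, A_01_P011330, the response was 0.60 in FBR, 1.25 in FTV, 0.64 in FNV and 0.54 in FKN, a mean of 0.76 ± 0.33 (1.69-fold, adjusted p = 0.00959 in limma). FTV stood apart from the other animals, which lay between 0.54 and 0.64, and the call held without any 1 animal. The overlapping probe A_01_P1698076 averaged 0.66 ± 0.36 (adjusted p = 0.0183 in limma, and 0.0140 to 0.0635 with 1 animal left out). The third probe, at chr20:25893855-25894649, averaged 0.62 ± 0.47 (adjusted p = 0.0450 in limma, and 0.00993 to 0.151 with 1 animal left out), with 0.06 in FNV, inside its self-self range. IL21, the ligand, rose by 1.85 (adjusted p = 0.0107 in limma); it was above background in 14 of 16 stimulated channels and in 5 of 16 unstimulated channels.

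IL4R, the chain that binds interleukin-4 and also serves interleukin-13, rose on 2 of 3 probes. On the brightest, A_01_P1675686, the response was 0.34 in FBR, 0.76 in FTV, 0.52 in FNV and 0.18 in FKN, a mean of 0.45 ± 0.25 (1.37-fold, adjusted p = 0.0224 in limma, and 0.0350 to 0.0700 with 1 animal left out). The self-self arrays of this probe ran from -0.22 to 0.34, so FBR and FKN did not exceed its self-self spread. The other probes, A_01_P1695146 and A_01_P1696446, averaged 0.33 ± 0.19 (adjusted p = 0.0338 in limma) and 0.26 ± 0.22 (adjusted p = 0.0846 in limma), and neither was above background on any FNV channel. For A_01_P1695146 the adjusted p in limma ran from 0.023 to 0.124 with 1 animal left out. Its mean was 0.17 with stimulated RNA in Cy5 and 0.48 with it in Cy3, and its self-self arrays reached -0.31. The ligands changed far more: IL4 rose by 4.62 and IL13 by 3.40.

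IL7R, the alpha chain of the interleukin-7 receptor, was the receptor that fell. Its response was -0.97 in FBR, -0.41 in FTV, -0.65 in FNV and -0.85 in FKN, a mean of -0.72 ± 0.25 (a 1.65-fold decrease, adjusted p = 0.00511 in limma). The self-self arrays reached 0.39 in size, in FTV, so FTV exceeded them narrowly and the other animals clearly; of the ratio arrays of FTV, the one with stimulated RNA in Cy5 read -0.14 and the one with it in Cy3 -0.68. The fall was -0.61 on the arrays with stimulated RNA in Cy5 and -0.83 on those with it in Cy3. With median centring the value was -0.63 with an adjusted p of 0.0796 in limma. In log2 intensity the stimulated cells stood at 12.07 in FBR, 13.06 in FTV, 9.73 in FNV and 11.77 in FKN, against 13.08, 13.56, 10.43 and 12.72 in unstimulated cells. The drop was present in each animal, yet FNV was lower in both conditions than any sample of the other animals. IL2RG, which pairs with all of these chains, had a response of 0.21 (adjusted p = 0.0575 in limma), and the ligand IL7 one of -0.06 (adjusted p = 0.694 in limma).

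**Figure D2:**
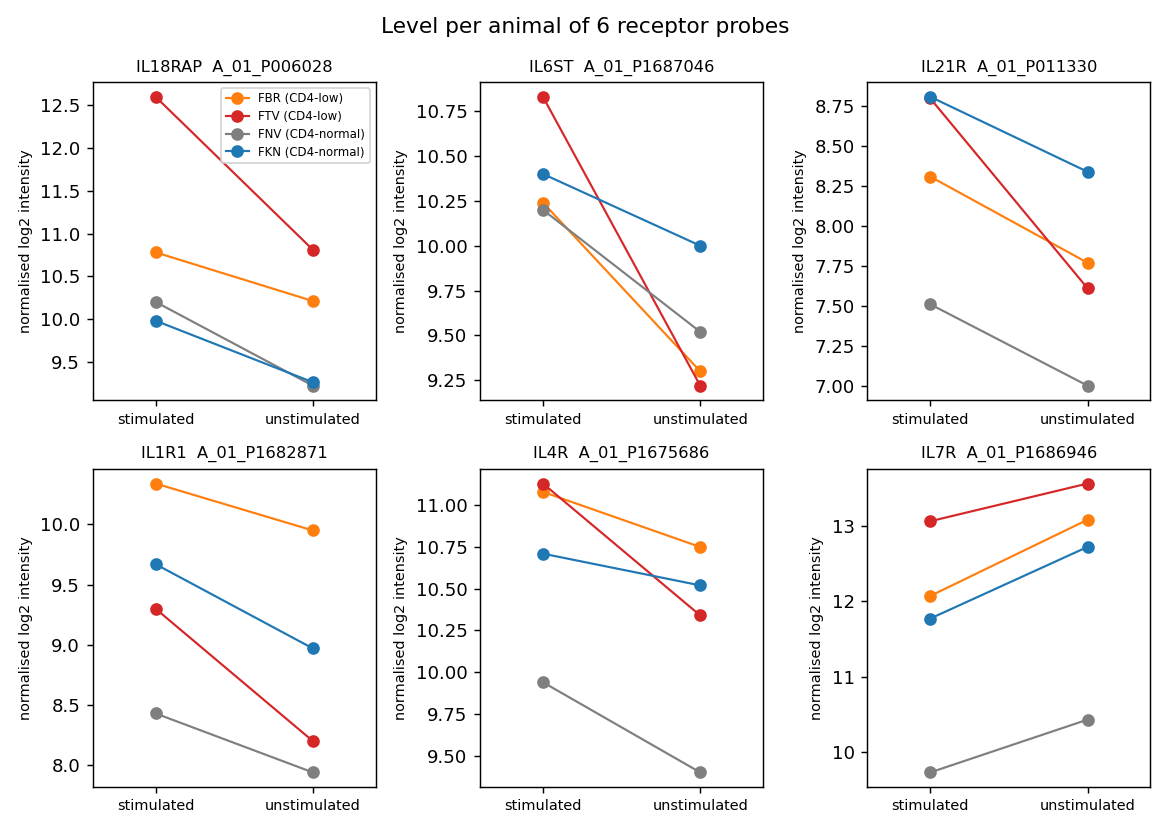
Normalised log2 intensity of 6 receptor probes, each with its own axis, in stimulated cells (left) and unstimulated cells (right), with a line per animal. Lines slope down to the right for the 5 probes that rose and up for IL7R, and FNV lies lowest of the 4 animals in both conditions for IL21R, IL1R1, IL4R and IL7R.

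IL6ST encodes gp130, the signalling chain shared by interleukin-6 and several related cytokines, and its 7 probes did not give the same answer. The probe at the lowest coordinate, A_01_P1687046, had responses of 0.96 in FBR, 1.73 in FTV, 0.67 in FNV and 0.42 in FKN, a mean of 0.94 ± 0.57 (1.92-fold, adjusted p = 0.0222 in limma). This was the single receptor probe whose stimulated levels (10.24, 10.83, 10.20 and 10.40 in FBR, FTV, FNV and FKN) all lay above its unstimulated levels (9.30, 9.22, 9.52 and 10), as 7.72% of all tested probes did. Without FBR the value was 0.94 with an adjusted p of 0.0869 in limma, and with median centring 0.96 with an adjusted p of 0.0854. The probe A_01_P1751946, which lies 25.38 kb from it, averaged 0.48 ± 0.34 (adjusted p = 0.0408 in limma, and 0.0455 to 0.132 with 1 animal left out).

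The other IL6ST probes did not pass. A_01_P1751921, A_01_P1751926 and A_01_P1695151 averaged 0.52, 0.55 and 0.55, with adjusted p-values of 0.0914, 0.0825 and 0.0699 in limma. In these the spread between animals was about as large as the mean: on A_01_P1751926, the brightest, FBR had 0.42, FTV 1.25, FNV 0.53 and FKN -0.01. A_01_P1751941, which shares 25 bases with A_01_P1695151, averaged 0.16 ± 0.17 (adjusted p = 0.167 in limma). It was above background in 12 of 16 stimulated and 8 of 16 unstimulated channels, and on no FNV channel. A_01_P1751936 was above background in none of the 32 channels and was not tested.

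**Figure D3:**
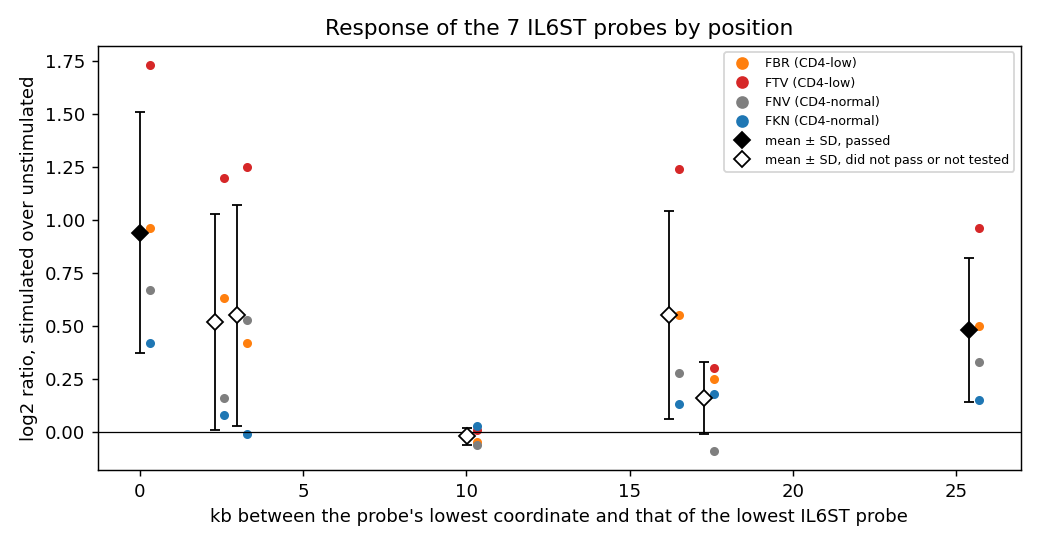
Response of the 7 IL6ST probes (log2 ratio of stimulated over unstimulated signal) against the distance in kb from the probe with the lowest coordinate, with the mean ± SD as a diamond and the animals as points set slightly to the right. The probe at 0 kb has the highest mean, 0.94, and the probe at 10.03 kb, never above background, lies at -0.02.

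IL6R, which binds interleukin-6 and presents it to gp130, did not pass. Its response was -0.53 in FBR, 0.03 in FTV, -0.17 in FNV and -0.44 in FKN, a mean of -0.28 ± 0.26 (adjusted p = 0.0936 in limma). On the brightest probe of each gene the IL6ST response exceeded that of IL6R in 4 of 4 animals, by 0.83 ± 0.34 on average (exact two-sided sign-flip p = 0.125, the smallest that 4 animals allow). IL6 rose by 1.88 and OSM, another ligand that uses gp130, by 1.87.

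IL12RB2, the chain of the interleukin-12 receptor that recruits STAT4, rose on both probes. On A_01_P1691661 the response was 0.46 in FBR, 0.79 in FTV, 0.09 in FNV and 0.77 in FKN, a mean of 0.52 ± 0.33 (adjusted p = 0.0287 in limma, and 0.00419 to 0.115 with 1 animal left out). A_01_P1766351, whose ends lie 9048 bases apart in the genome, averaged 0.50 ± 0.30 (adjusted p = 0.0272 in limma). Neither probe was above background on any FNV channel, so signal for the rise came from 3 animals, but the means and tests given here include FNV. Without FNV the means were 0.67 on A_01_P1691661 and 0.64 on A_01_P1766351. IL12RB1, the other chain of that receptor, had a response of -0.16 (adjusted p = 0.0732 in limma), below IL12RB2 in each animal, by 0.69 ± 0.31 (1.46 ± 0.39 with the scanner's own log ratios). IL23R, which also pairs with IL12RB1, rose by 0.48 (adjusted p = 0.0483 in limma).

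IL10RA, the chain that binds interleukin-10, did not pass. Its response was -0.44 in FBR, -0.02 in FTV, 0.05 in FNV and -0.58 in FKN, a mean of -0.25 ± 0.31 (adjusted p = 0.173 in limma). The probe was above background in 1 of 4 stimulated FNV channels. Its partner IL10RB fell by 0.30 (adjusted p = 0.0150 in limma), and the ligand IL10 rose by 3.92.

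FTV had the highest log2 ratio of the 4 animals in 20 of the 21 receptor probes tested and in all 13 that rose. The 20 include IL7R, where FTV had the smallest fall (-0.41). Of the 21 probes 6 were of IL6ST. Over the array, FTV was highest in 48.4% of the 5466 probes that rose and in 30.5% of all probes tested. The median over the 21 receptor probes was 0.43 in FBR, 0.79 in FTV, 0.16 in FNV and 0.20 in FKN, where the median of all probes was between -0.01 and 0.00 in each animal.

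The responses depended on how dim signals were treated. The offset of 50 added after background correction pulls ratios of dim probes towards 0. With an offset of 16, the IL12RB2 probe A_01_P1766351 rose by 0.77 in place of 0.50, and 14 receptor probes rose in place of 13. Over all probes tested 5909 rose in place of 5466. In the authors' deposited table, the means over the 4 animals were 1.42 for that probe's transcript and 0.65 for IL18R1. For IL18RAP (1.07) and IL7R (-0.75), both read by bright probes, they were close to the values given here. For IL21R (1.17) and IL4R (0.81) that table holds the same value for 3 probes each, which differ in brightness. The brightest IL4R probe, above background in 16 of 16 channels of each condition, averaged 0.45 here and 0.47 with the scanner's own log ratios. With those ratios the dimmer IL4R probes A_01_P1695146 and A_01_P1696446 averaged 0.9 and 0.57. Because 1 deposited value stands for all 3 IL4R probes, it cannot show which of them differ from it.

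The remaining genes of these pathways were read with 1 probe a gene, the brightest. Of 15 ligands and antagonists tested 14 rose and none fell, with a median of 1.25; IL4, IL10, IL13 and IL6 changed most. Of 7 partner chains 1 rose, 1 fell and 5 did not pass, with a median of 0.24. Of 19 other cytokine receptors 3 rose, 5 fell and 11 did not pass, with a median of -0.09, and the extremes were IL2RA (2.55), IL15RA (1.75), IL11RA (-1.33) and IL9R (-1.22). Of 12 signal relays 4 rose (STAT5A by 1.96, JAK2 by 1.38, STAT4 by 1.35 and STAT3 by 0.60) and 1 fell, with a median of 0.13. Over all probes tested 20.0% rose and 20.5% fell, with a median of -0.01.

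**Figure D4:**
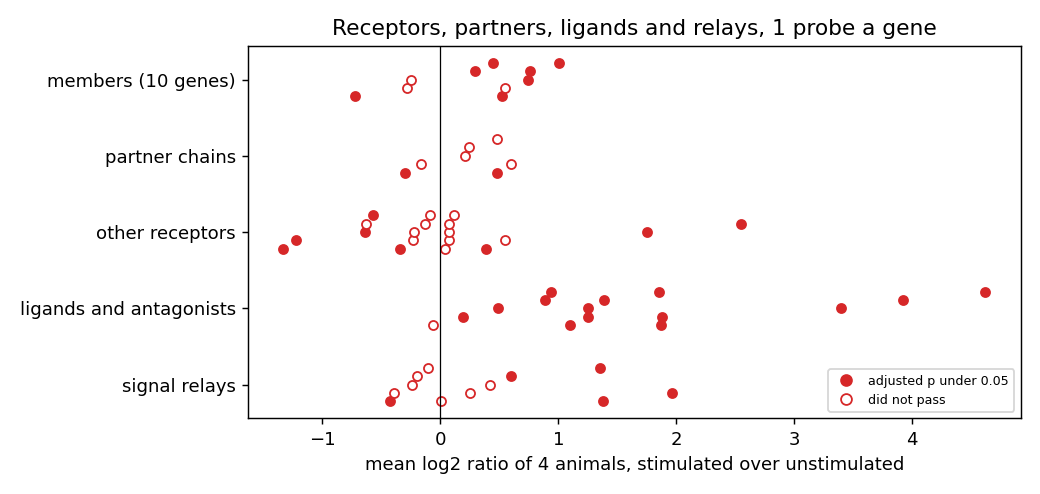
Mean log2 ratio of stimulated over unstimulated signal over 4 animals, 1 point per gene, for the 10 receptor genes, their partner chains, other cytokine receptors, ligands and antagonists, and signal relays, filled where the adjusted p was under 0.05. Ligands reach 4.62, while the 10 receptors lie between -0.72 and 1.01.

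The genes whose levels over the 8 combinations of animal and condition were most like those of IL18RAP were CCDC127 (Pearson r = 0.97), PIM1 (0.96), FBXO48 (0.94), TTC39A (0.93) and RNASE10 (0.93). For IL7R they were GIGYF1, ZBTB38 and ZNF518A (0.99 each), and GPATCH8 and IKZF3 (0.98 each). The 8 points share animals, arrays and, for FNV, a lower signal; FNV is the 1 animal of its scan batch, so animal and batch cannot be told apart.

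The second comparison asks whether animals of low CD4 status differ from those of normal CD4 status, in the response and in the level of either condition. With 2 animals against 2, an exact permutation test of 1 probe cannot give a p below 0.333, so limma's fit over all probes was used. No probe of the 27384 passed in any of the 3 comparisons (0% each). At an unadjusted p under 0.05, limma counted 592 probes (2.16%) for the response, 446 (1.63%) for the unstimulated level and 526 (1.92%) for the stimulated level. FNV, 1 of the 2 animals of normal status, is also the animal of the earlier scan batch, and its lower signal enters each level below. Of the 21 receptor probes tested, both animals of low status lay above both of normal status in 8 for the response (against 15.3% of all probes). They did so in 2 for the unstimulated level (15.2%) and in 10 for the stimulated level (16.1%). They lay below in 0 for the response (against 11.6% of all probes), in 1 for the unstimulated level (19.1%) and in 0 for the stimulated level (18.1%). The 8 probes came from IL6ST, IL4R and IL18R1 alone. Of them, IL4R A_01_P1695146 and A_01_P1696446 and IL6ST A_01_P1751941 were above background on no FNV channel. In the authors' deposited table FNV exceeded FBR for IL4R (1.07 against 0.77) and IL18R1 (0.60 against 0.53). It did not for the IL6ST transcript of A_01_P1687046 (0.86 against 1.01).

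IL18RAP, IL7R and IL6ST are described here, and were chosen after their values were seen. For IL18RAP the unstimulated level was 10.21 in FBR and 10.81 in FTV, against 9.22 in FNV and 9.26 in FKN. Both animals of low status were above both of normal status, by 1.27 on average (unadjusted p = 0.00844, adjusted p = 0.8219 in limma). Without FNV the difference was 1.25. In stimulated cells it was 1.60 (adjusted p = 0.8287 in limma), 1.72 without FNV, 0.69 without FTV and 2.52 without FBR.

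IL7R was likewise higher in low status, by 1.75 in unstimulated cells (adjusted p = 0.8219 in limma) and by 1.81 in stimulated cells (adjusted p = 0.8287 in limma). Without FNV these differences were 0.60 and 0.79, and without FKN 2.89 and 2.83. Its response differed by 0.06 (adjusted p = 0.9999 in limma).

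For the response, the widest gaps were in IL6ST. On A_01_P1687046 the response averaged 1.34 in low status and 0.54 in normal status, and on A_01_P1751921 0.92 and 0.12, differences of 0.80 and 0.79 with unadjusted p-values of 0.0475 and 0.0202 in limma, each with an adjusted p of 0.9999. Without FTV these differences were 0.42 and 0.51. On 5 of the 6 IL6ST probes tested both animals of low status responded more than both of normal status, and the probes report on 1 gene in the same animals. For A_01_P1751941, 1 of the 5, no FNV channel was above background, and 1 of 4 unstimulated FTV channels was. In unstimulated cells the IL6ST probes differed in sign, from -0.50 on A_01_P1687046 to 1.01 on A_01_P1751921. In stimulated cells both animals of low status were above both of normal status on 4 IL6ST probes, by 1.75 on A_01_P1751921, 1.15 on A_01_P1751946, 1.13 on A_01_P1695151 and 1.01 on A_01_P1751926 (adjusted p = 0.8287 in limma for each). Without FNV these 4 differences were between 0.30 and 0.58, and without FKN between 1.73 and 2.92.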

How the data were processed

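The labels' protocols describe magnetic isolation of double-negative T cells at above 98% purity, rest overnight, stimulation and Cy3 and Cy5 labelling. Agilent Feature Extraction and limma are named in the submitters' processing notes; the file headers give Feature Extraction 10.7.3.1 and build rheMac2. The deposited spot and background values are intensity on a linear scale, and the deposited scanner ratio is log10 of Cy5 over Cy3, per the file headers. The authors' deposited table holds log2 ratios of stimulated over unstimulated signal per animal; its background correction and normalization are not given in the sources used here.

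Control spots and outlier flags were left out (1 to 51 spots per array; no spot was saturated). With limma 3.58.1 in R 4.3.3, backgrounds were corrected with normexp (offset 50), ratios normalised by loess, and levels by Aquantile; spots of a probe were averaged. Ratios were turned to stimulated over unstimulated and averaged per animal, so n is 4. A probe was tested if the scanner software flagged it as above background in 1 condition, in both dye orientations, in at least 2 animals. lmFit and eBayes tested responses against 0, and low minus normal CD4 status, with Benjamini-Hochberg adjustment over all 27384 probes. The fits were tested on simulated data. The number of arrays limits the precision, and 1 culture per condition and animal is all that the labels describe.

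Genes were named from the newer annotation edition (18160 probes), the older one (647) or the description (383); 24413 probes had no name. All receptor probes were described. Of each other gene list, counts and up to 4 genes with the largest response past the threshold were named, together with partners and ligands of a receptor, 10 markers, and the 5 genes most like IL18RAP and IL7R. One of these markers is not reported here by name, and CD79B, CD5, NKG7, KLRD1 and NCR1 were added after their values were seen. Receptors and lists were chosen with earlier results of these data known. The alternatives are described at the end. Stimulated and unstimulated samples of an animal are paired by the array itself.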

Additional observations from a re-analysis of the deposited data

Results flagged for a closer look

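Of 63 sets of 4 animals looked at (responses, stimulated levels and unstimulated levels of the 21 tested receptor probes), 4 had 1 animal farther from the others than Dixon's 95% critical value allows for the gap divided by the range. Chance flags about 1 in 20 such sets. The response of IL21R A_01_P011330 had a ratio of 0.8534, with FTV at 1.25 above the other animals. In 3 sets FNV, the animal of the earlier scan batch, was the low one. The unstimulated level had a ratio of 0.8515 on IL6ST A_01_P1751921 (FNV at 7.45) and of 0.8876 on IL6ST A_01_P1751946 (FNV at 7). The stimulated level of IL6ST A_01_P1751941 had a ratio of 0.8294, with FNV at 6.47.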

How the results depend on the processing

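No response of a receptor probe changed sign under any alternative. Of 325 tested values of receptor probes under alternatives, 250 stayed on the same side of the threshold, 69 lost the call and 6 gained it. Only the 13 probes that rose and the 1 that fell in the main fit could lose a call. The 69 are therefore a larger share of the values of those probes than of all 325. Of 17 receptor probes set against the authors' deposited table, which has no test, 10 moved by more than the SD between animals. The deposited values of IL21R (1.17) and IL4R (0.81) each count for 3 probes among the 10. The paired chains were set against other signal treatments after the data were seen. Median centring gave 4870 calls (1961 rises, 2909 falls) in place of 11080 (5466 and 5614), and 4 receptor rises and 0 falls in place of 13 and 1. With 1 probe per symbol, which tests 10 receptor probes, 6 rose, against 4369 of all 22841 probes. With scan batch as a term 7 receptor probes rose, against 5194 of all 27384. That fit weighted both scan batches equally, so FNV, alone in its batch, counted as much as the other animals together. From the self-self arrays alone, with the animal as a replicate block, 7 receptor probes rose and 1 fell. Of all 27337 probes in that fit 3821 rose and 4353 fell. Without that block there were 2157 calls (1070 rises, 1087 falls), 1 receptor rise and 0 falls. Leaving out 1 animal gave 5813 to 14075 calls, 2941 to 7112 rises, 2872 to 6963 falls, and 4 to 15 receptor rises. Apart from the construction of the single-probe setting, the cause was not tested.

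For CD4 status, leaving out 1 animal gave 0 to 2 calls for the unstimulated level. For the stimulated level it gave 0 to 5129 calls and 0 to 7 receptor calls, the most without FKN, which leaves FNV as the lone animal of normal status, assumed to vary like the others, so that status and scan batch cannot be told apart. For single probes these alternatives were run on the 8 of IL7R, IL18RAP and IL6ST and not on the other 13. Among those 8, differences between low and normal status, none called with all 4 animals, changed sign as follows, with the range over fits that left out 1 animal. The response of IL7R ran from -0.22 (without FTV) to 0.34 and was -0.04 without FKN, and that of IL18RAP ran from -0.34 (without FTV) to 0.78. Unstimulated levels of IL6ST ran from -0.56 to 1.55 (A_01_P1751926), -0.28 to 2.31 (A_01_P1751921), -0.36 to 1.45 (A_01_P1695151) and -0.15 to 1.43 (A_01_P1751946), and the low end was without FNV or with scan batch as a term. For A_01_P1751941 they ran from -0.12 to 0.10, with 0.01 without FTV. Stimulated levels ran from -0.06 (without FTV) to 0.53 on A_01_P1687046, and from 0.00 (without FNV or with scan batch as a term) to 0.35 on A_01_P1751941. Dim probes, with few or no channels above background in FNV, limit the precision of IL12RB2, IL18R1, IL6ST A_01_P1751941 and the other IL4R probes than A_01_P1675686.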
